A study of Mus musculus with 6 samples.

Results

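Cohesin is a ring-shaped protein complex that holds sister chromatids together and shapes chromatin loops. The genes described here are 10 members of that family and its meiotic surroundings: the meiotic genes Stag3, Smc1b, Rad21l, Rec8 and Syce2 and the somatic genes Stag1, Stag2, Smc1a, Smc3 and Rad21. They were taken by symbol from the platform's annotation of the array, with the probe set of each gene chosen by its mean signal over the 6 arrays (the brightest was kept), and they make up 10 of the 19938 genes that a single-gene probe set names. All 10 were measured, and no filter on dim signal was applied. Only Rad21l had a choice of probe sets, with a mean of 5.15 over the 6 arrays for the one used and 4.49 for the other. Stag3 was included with its change in these samples already known, so its values are given as a description and without a test. The other members were also chosen with earlier results of these data known, so their p-values, that of Syce2 included, are not independent tests.

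The samples were 3 Etv5 knockout and 3 Etv5 wild-type samples of mouse pre-B cells (strain 129SvEv) transformed with BCR-ABL1, the fusion tyrosine kinase that drives Philadelphia chromosome-positive acute lymphoblastic leukemia. Both genotypes carried BCR-ABL1. Etv5 is an ETS-family transcription factor, and the design asks which transcripts differ when it is missing. The labels give no age, deleted exons or source of each sample, and do not say whether replicate samples stem from different mice or cultures. The p-values therefore rest on the scatter among these samples alone, and that scatter may be technical.

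The cohesin ring consists of a pair of long coiled-coil ATPases of the SMC family (Smc3 with Smc1a), a kleisin that closes the ring (Rad21) and a STAG protein that sits on the kleisin (Stag1 or Stag2). Germ cells entering meiosis build further rings in which Smc1b takes the place of Smc1a, Rec8 or Rad21l the place of Rad21, and Stag3 the place of Stag1 or Stag2. These rings form the chromosome axes on which homologous chromosomes are joined by the synaptonemal complex, of which Syce2 is a central element protein. B cell precursors divide by mitosis, for which the somatic subunits suffice.

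The starts of 4 genes are printed because the results below turn on Stag3, on Gpc2, which lies next to it and fell with it, and on Syce2, with Smc1b as a meiotic subunit whose difference did not pass the test. Each sequence runs 5′ to 3′ on the gene's own strand, from 250 bases before the start to 10 bases after it, and was taken from RefSeq on build GRCm38.p6. Capitals mark matches to an E-box (CACGTG) or to an E2F motif (TTCCCGC or its reverse complement GCGGGAA).
Stag3 (chr5:138280259-138280518, plus strand): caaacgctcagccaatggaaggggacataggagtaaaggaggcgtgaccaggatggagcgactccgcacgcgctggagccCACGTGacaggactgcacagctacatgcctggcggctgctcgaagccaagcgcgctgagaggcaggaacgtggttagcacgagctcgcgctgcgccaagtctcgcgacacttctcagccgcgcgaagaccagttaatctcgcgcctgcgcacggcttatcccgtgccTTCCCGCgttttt
Gpc2 (chr5:138279928-138280187, minus strand): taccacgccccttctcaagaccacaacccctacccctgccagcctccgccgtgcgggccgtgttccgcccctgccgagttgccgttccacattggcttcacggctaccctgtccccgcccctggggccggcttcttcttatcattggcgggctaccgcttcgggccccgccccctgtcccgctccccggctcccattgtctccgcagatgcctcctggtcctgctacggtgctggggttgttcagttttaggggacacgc
Syce2 (chr8:84872008-84872267, plus strand): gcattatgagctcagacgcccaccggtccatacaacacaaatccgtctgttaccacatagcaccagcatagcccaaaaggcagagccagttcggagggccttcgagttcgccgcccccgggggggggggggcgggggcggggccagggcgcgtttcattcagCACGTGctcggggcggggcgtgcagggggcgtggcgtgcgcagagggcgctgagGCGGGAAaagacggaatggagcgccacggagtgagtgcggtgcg
Smc1b (chr15:85131948-85132207, minus strand): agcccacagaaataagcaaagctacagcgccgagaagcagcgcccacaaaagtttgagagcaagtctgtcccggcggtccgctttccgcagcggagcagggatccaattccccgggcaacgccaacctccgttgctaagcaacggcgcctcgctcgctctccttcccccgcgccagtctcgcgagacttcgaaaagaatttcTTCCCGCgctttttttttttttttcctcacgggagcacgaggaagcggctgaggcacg
A promoter window of 300 bases, reaching 50 bases past the start, was available for 8 of the 10 genes, Syce2 with 2 windows; Stag2 and Rad21 are named only. In windows of that length, on either strand, the E2F motif was found in 5 of these 8 genes (Stag3, Smc1b, Syce2, Stag1 and Smc1a) and in 4.6% of all 32851 windows of the table. Its first base lay 3 bases before the start of Stag3, 48 bases before that of Smc1b and 34 bases before the printed start of Syce2. The E-box was found in Stag3 and Syce2, at 170 and 88 bases before the printed start, and in 7.15% of all windows. The other Syce2 window, with a different start, held neither motif. A gene counted if any of its windows matched, whereas the shares over the table count windows. An ETS motif (CCGGAA), the kind of site that ETS factors bind, was found in Smc1a alone among these genes and in 14.9% of all windows, and the CRE motif (TGACGTCA) in none of them and in 1.79%. The motifs searched share no bases in these windows. A match describes letters in a window and says nothing of binding.

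Across the 10 genes, Stag3 stood far lower in the knockout and Syce2 slightly higher, while the other 8 lay close together in both genotypes. In the fit across all 35556 probe sets (limma, Benjamini-Hochberg adjustment, threshold 0.05), 1 of the 9 genes other than Stag3 was called higher (Syce2) and 0 lower, with 1 of the 9 at an unadjusted p under 0.05. The same rule called 4.43% of all 19938 genes, 2.01% as lower and 2.42% as higher. The genotypes did not overlap in 1 of these 9 genes, against 20.5% of all genes. The median difference was 0.0091 log2 units over the 10 genes and -0.0039 over all genes.

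Stag3 encodes the STAG protein of meiotic cohesin. Its log2 RMA signal (robust multi-array average, the normalized brightness of a probe set) was 8.58, 8.93 and 8.78 in the knockout samples, against 11.61, 11.65 and 11.83 in the wild-type samples. Every knockout sample lay far below every wild-type sample, with a gap of 2.68 log2 units between the nearest of them. The mean was 8.76 ± 0.18 in the knockout and 11.69 ± 0.12 in the wild type (SD, n = 3 each), which is 7.63-fold lower in the knockout (log2 difference -2.93 ± 0.11 SE, 95% interval -3.19 to -2.67). By size of the log2 difference it ranked 4 from the lowest of all 19938 genes, and 1.03% of genes differed by at least 1 log2 unit in either direction. The knockout signal lay above that of Kdm5d, the brightest of 3 measured Y-linked genes (6.12 in the knockout and 6.10 in the wild type). That level serves here as a rough guide to dim signal, and the labels do not give the sex of the mice. Col1a1, the brightest of 8 stromal and endothelial markers, had a mean of 8.81 in the knockout and 8.82 in the wild type. The medians of that list were 7.08 and 7.13. The knockout level of Stag3 was therefore not shown to be above unspecific signal, and the fold may be understated.

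**Figure D1:**
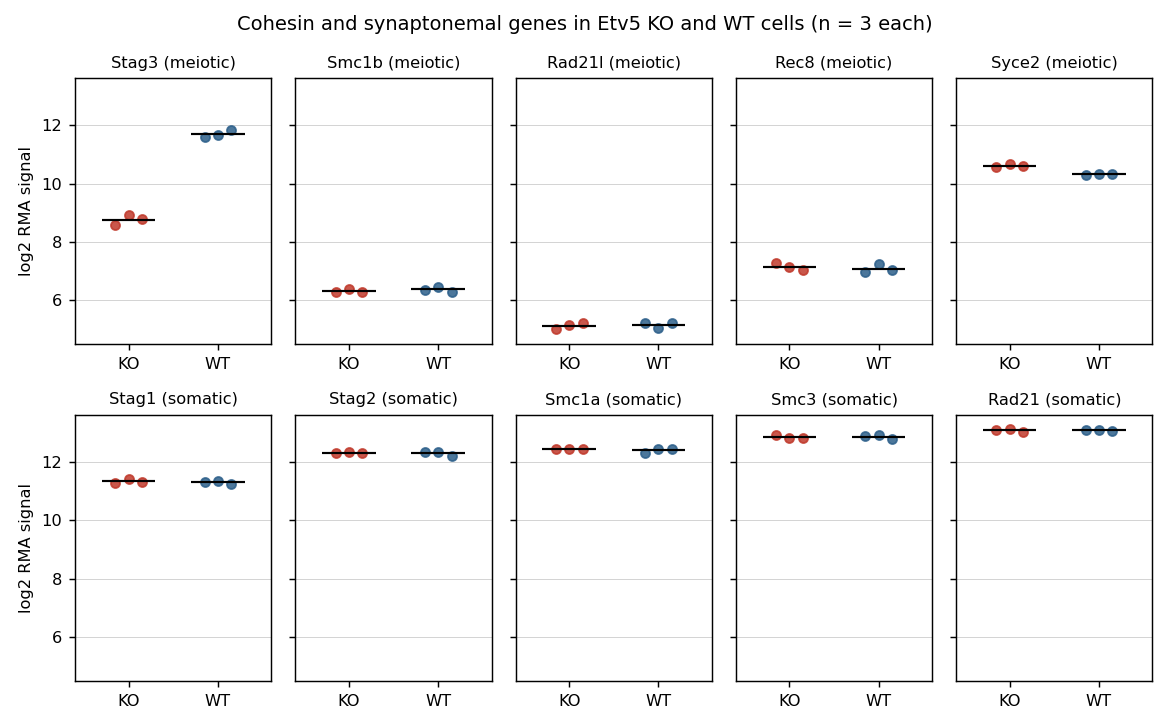
Log2 RMA signal (y axis) of each gene in the 3 Etv5 knockout samples (red, left) and the 3 wild-type samples (blue, right), with the mean as a black line; meiotic genes are in the upper row and somatic genes in the lower. Stag3 lies at 8.58 to 8.93 in the knockout and 11.61 to 11.83 in the wild type, whereas the somatic genes are bright in both.

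Syce2 moved the other way and by far less. Its log2 signal was 10.57, 10.66 and 10.62 in the knockout samples, against 10.29, 10.32 and 10.34 in the wild-type samples. The genotypes did not overlap, and the nearest samples lay 0.23 log2 units apart. Syce2 rose 1.23-fold in the knockout (log2 difference 0.30 ± 0.05 SE, 95% interval 0.18 to 0.42, limma adjusted p = 0.034). Because the members were chosen with earlier results known, this p-value is not an independent test of Syce2. The call rested on all 6 samples: leaving out any 1 of them gave an adjusted p between 0.0635 and 0.166, with a difference of 0.28 to 0.32.

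The remaining meiotic subunits were dim. Smc1b, the meiotic SMC protein, had log2 signals of 6.28, 6.38 and 6.27 in the knockout and 6.35, 6.47 and 6.30 in the wild type, just above the Kdm5d level. Rad21l, a meiotic kleisin, had 5.01, 5.16 and 5.23 in the knockout and 5.23, 5.04 and 5.24 in the wild type, below that level, so it was not shown to be above background in either genotype. Rec8, the other meiotic kleisin, had 7.28, 7.15 and 7.03 in the knockout and 6.96, 7.26 and 7.05 in the wild type. In all 3 genes the genotypes overlapped. The log2 differences and their 95% intervals were -0.06 (-0.22 to 0.10) for Smc1b, -0.03 (-0.24 to 0.17) for Rad21l and 0.06 (-0.18 to 0.31) for Rec8, with limma adjusted p-values of 0.892, 0.977 and 0.953. The second, dimmer probe set of Rad21l differed by -0.03 as well (adjusted p = 0.974). Dim probe sets show compressed differences after RMA, so these intervals describe the signal and may understate a change of the transcript.

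The somatic subunits were bright and nearly level between the genotypes. Stag1, one of the somatic STAG proteins, had log2 signals of 11.29, 11.41 and 11.30 in the knockout and 11.31, 11.33 and 11.25 in the wild type. Stag2, encoded on the X chromosome and the other somatic STAG protein, had 12.30, 12.32 and 12.29 in the knockout and 12.34, 12.33 and 12.21 in the wild type. For both the samples of the genotypes were intermixed. Their log2 differences were 0.03 ± 0.06 (SE, 95% interval -0.10 to 0.17, limma adjusted p = 0.955) for Stag1 and 0.01 ± 0.06 (SE, 95% interval -0.12 to 0.15, adjusted p = 0.988) for Stag2. Smc1a, also X-linked and the mitotic partner of Smc3, had 12.46, 12.45 and 12.43 in the knockout against 12.31, 12.44 and 12.44 in the wild type. Smc3, the SMC protein that mitotic and meiotic rings share, had 12.90, 12.82 and 12.83 in the knockout against 12.89, 12.91 and 12.77 in the wild type. Rad21, the mitotic kleisin, had 13.08, 13.13 and 13.03 in the knockout against 13.09, 13.10 and 13.04 in the wild type. All 3 overlapped between genotypes. Their differences were 0.05 (95% interval -0.09 to 0.19) for Smc1a, -0.0038 (-0.15 to 0.14) for Smc3 and 0.0061 (-0.12 to 0.13) for Rad21, with limma adjusted p-values of 0.917, 0.997 and 0.995. The intervals of the 5 somatic genes therefore reached no further than 0.19 log2 units from 0 in either direction. The spread between samples of a genotype (pooled SD) had a median of 0.055 log2 units over the 5 somatic genes and 0.112 over the 5 meiotic genes, beside 0.088 over all genes.

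**Figure D2:**
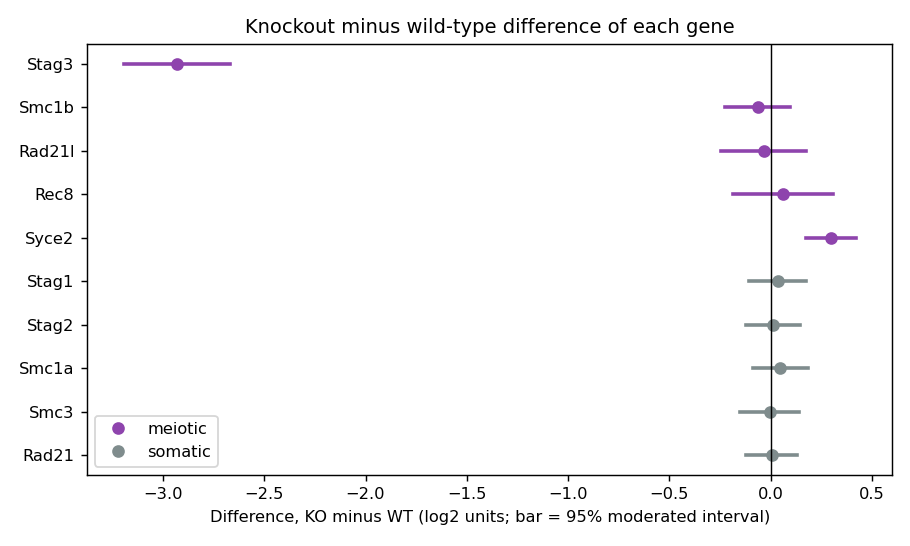
Knockout minus wild-type difference in log2 units (x axis) of each gene, with bars for the 95% interval from limma; meiotic genes are purple and somatic genes grey. The bar of Stag3, a gene chosen for its change, is a description and runs from -3.19 to -2.67. Among the other genes, only the bar of Syce2 (0.18 to 0.42) stays clear of 0.

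Meiotic and somatic paralogues were then set against each other within each array, so that the comparison is of their changes and not of the brightness of different probe sets. In all, 5 pairs were compared. Stag3 minus Stag2 was -3.72, -3.39 and -3.51 in the knockout samples, against -0.73, -0.68 and -0.38 in the wild-type samples. Stag3 minus Stag1 was -2.71, -2.47 and -2.52 in the knockout, against 0.29, 0.31 and 0.58 in the wild type. In both pairs the genotypes were far apart. The change of Stag3 differed from that of Stag2 by -2.94 (95% interval -3.25 to -2.64) and from that of Stag1 by -2.97 (-3.22 to -2.71) log2 units, values that describe a gene chosen for its change. The other 3 pairs did not pass the test of the difference. Their meiotic genes were already dim in the wild type (means of 6.37 for Smc1b, 5.17 for Rad21l and 7.09 for Rec8). A fall like that of Stag3 might therefore not have been visible in them. Smc1b minus Smc1a averaged -6.14 ± 0.05 in the knockout and -6.02 ± 0.11 in the wild type (SD, n = 3 each), a difference in change of -0.11 (95% interval -0.28 to 0.06, limma adjusted p = 0.722). Rec8 and Rad21 differed in change by 0.06 (-0.18 to 0.29, adjusted p = 0.957) and Rad21l and Rad21 by -0.04 (-0.28 to 0.20, adjusted p = 0.976). The exact two-sided permutation test over the 6 samples cannot go below p = 0.10; it gave 0.20, 0.60 and 0.80 for the 3 pairs without Stag3, in the order above.

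**Figure D3:**
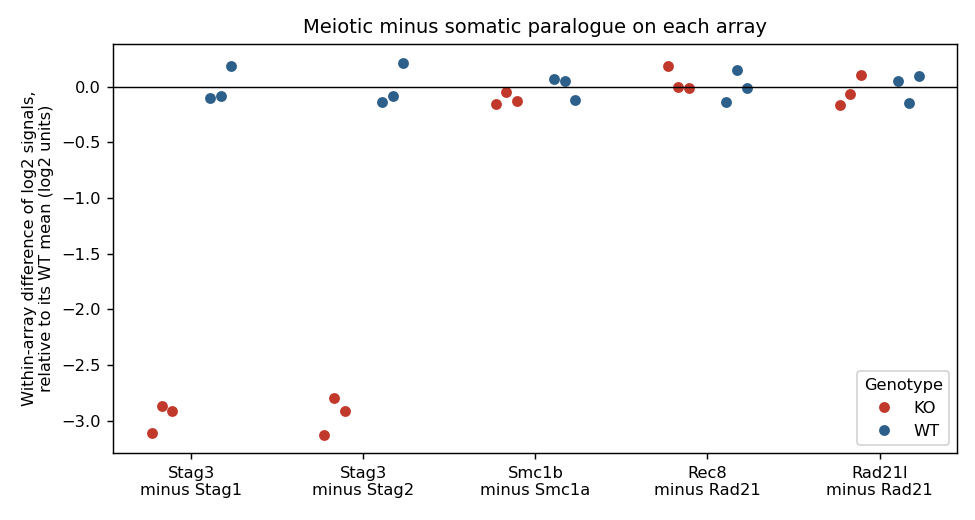
Within-array difference between the log2 signals of a meiotic gene and its somatic paralogue, relative to the mean of that difference in the wild type (y axis, log2 units), for 5 pairs; red points are knockout samples and blue points wild-type samples. Only the pairs with Stag3 separate the genotypes widely, by -2.97 against Stag1 and -2.94 against Stag2 on average. In the other pairs the meiotic gene was dim in both genotypes, which limits the fall that they could show.

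Of the genes around each of the 10, Gpc2 beside Stag3 fell too. Gpc2, which encodes the cell surface proteoglycan glypican-2, had log2 signals of 8.14, 8.30 and 8.11 in the knockout samples, against 8.87, 8.77 and 8.88 in the wild-type samples. The genotypes lay apart by 0.47 log2 units. Gpc2 was 1.57-fold lower in the knockout (log2 difference -0.65 ± 0.07 SE, 95% interval -0.83 to -0.48, limma adjusted p = 0.00614), and leaving out any 1 sample kept the adjusted p at or below 0.0412. On GRCm38.p6 Stag3 and Gpc2 are read in opposite directions, away from each other, from starts 572 bases apart on chromosome 5. The longest extent of Stag3 in the gene table also spans the whole of Gpc2, and the strand that the probes of this array read is not given in the sources used here, so whether the signals share RNA was not tested. Gal3st4, a sulfotransferase gene whose extent overlaps the longest extent of Stag3, lies beyond Gpc2 on the same side of the printed Stag3 start, was dim and differed by -0.09 (adjusted p = 0.928). Further out, Map11 and Lamtor4 beyond Gal3st4, and Zfp157 and 1700123K08Rik at the other end of Stag3, differed by -0.0039, 0.10, 0.10 and -0.0080, without passing the test (adjusted p 0.676 to 0.999).

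Taking the 3 nearest measured protein-coding genes on each side of all 10 genes, 1 of 60 rose and 1 fell (3.33%, beside 4.43% of all genes). The risen gene was Dnase2a, encoding a lysosomal DNase, 3 places from Syce2. It had 8.91, 9.02 and 9.02 in the knockout samples, against 8.57, 8.66 and 8.63 in the wild-type samples (log2 difference 0.36 ± 0.06 SE, limma adjusted p = 0.0264). Leaving out 1 sample ended its call in 5 of 6 fits, with an adjusted p of up to 0.13. The genes directly beside Syce2, Farsa and Gcdh, differed by 0.02 and -0.06. Of the 20 genes directly beside a listed gene, Gpc2 was the 1 that passed, and the other 19 differed by between -0.17 (Slc35g2, beside Stag1) and 0.21 (Dusp5, beside Smc3). Around the dim meiotic genes, Fam118a and Ribc2 beside Smc1b differed by -0.0020 and -0.11, Snph and Tmem74b beside Rad21l by -0.01 and 0.02, and Irf9 and Ipo4 beside Rec8 by 0.17 and -0.07. Around the somatic genes, Pccb beside Stag1 differed by 0.12, Xiap and Sh2d1a beside Stag2 by 0.04 and -0.0093, Ribc1 and Iqsec2 beside Smc1a by 0.06 and -0.03, Rbm20 beside Smc3 by 0.13, and Utp23 and Aard beside Rad21 by 0.06 and -0.10. None of these 19 passed limma; their adjusted p-values lay above the threshold of 0.05.

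**Figure D4:**
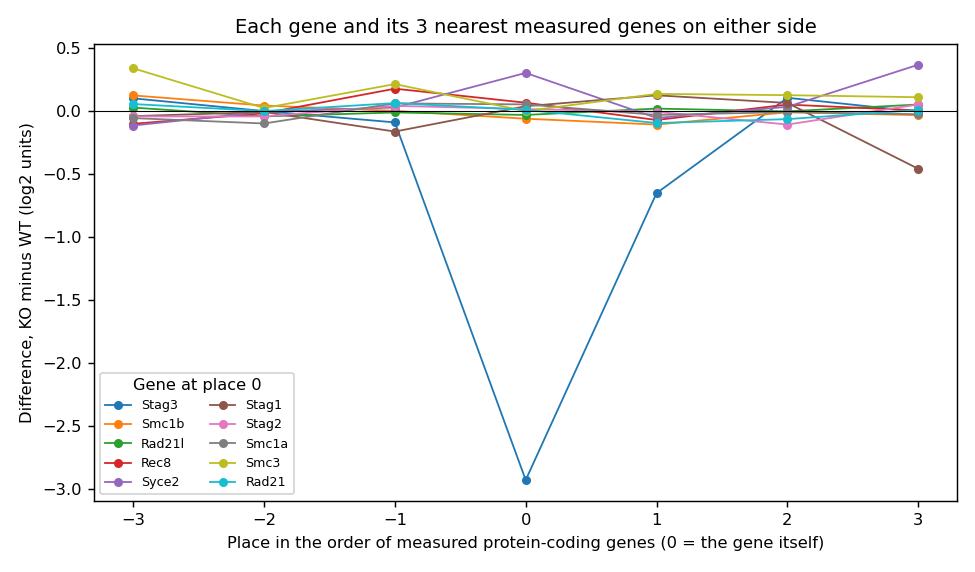
Knockout minus wild-type difference in log2 units (y axis) of each of the 10 genes (place 0) and of the 3 nearest measured protein-coding genes on either side, ordered by the lowest base of their extents in the gene table (x axis), which puts Gpc2 at place 1 within the longest extent of Stag3; 1 line per gene. The line of Stag3 drops to -2.93 at place 0 and -0.65 at Gpc2 and is near 0 at the other places.

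Factors that load, lock, release and cleave cohesin were mostly level. Of 22 measured cohesin regulators, 1 rose, 1 fell and 20 did not pass, with a median difference of 0.0035. Esco2, the acetyltransferase that locks cohesin onto chromatids in S phase, had 12.92, 12.91 and 12.92 in the knockout samples against 12.62, 12.63 and 12.65 in the wild-type samples, and rose by 0.28 ± 0.05 (SE, limma adjusted p = 0.0276). Wapl, which opens the ring and releases it from chromatin, had 10.99, 11.01 and 10.99 in the knockout against 11.33, 11.28 and 11.24 in the wild type, a difference of -0.29 ± 0.05 (adjusted p = 0.0358). For both genes the genotypes lay apart. Leaving out any 1 sample ended both calls, with adjusted p-values of 0.079 to 0.145 for Esco2 and 0.0778 to 0.171 for Wapl.

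In the lists of other meiotic and germline genes, Ccnb1ip1 fell and the rest did not pass the test. None of 10 measured synaptonemal complex genes passed limma, and 2 had an unadjusted p under 0.05 (median difference -0.03). These were 4930447C04Rik, listed in the gene table under the name Six6os1, with a log2 difference of 0.65 at a dim 5.33 ± 0.13 in the knockout and 4.68 ± 0.31 in the wild type (SD, n = 3 each, adjusted p = 0.139), and Trip13, an AAA-ATPase with roles in meiosis and in the mitotic checkpoint, with -0.14 (adjusted p = 0.313). Of 21 measured genes of meiotic recombination, 1 fell and 20 did not pass (median -0.04), while 6 had an unadjusted p under 0.05, beside 13.4% of all genes. The fallen gene was Ccnb1ip1, encoding the ubiquitin ligase HEI10 that marks crossover sites. It had 10.54, 10.60 and 10.58 in the knockout samples, against 11.18, 11.20 and 11.34 in the wild-type samples, 1.59-fold lower in the knockout with no overlap (log2 difference -0.67 ± 0.06 SE, limma adjusted p = 0.00318). Spo11, which makes the DNA breaks that start recombination, lay just outside the threshold (-0.50, limma adjusted p = 0.05005). It was dim, at 6.40 ± 0.06 in the knockout and 6.90 ± 0.16 in the wild type, and was named after its value was seen. None of 24 measured germline genes passed limma, 2 having an unadjusted p under 0.05 (Meioc at -0.19 and Zbtb16 at -0.17, adjusted p = 0.381 and 0.452), and their median was -0.03.

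The germ cell markers were dim in both genotypes. The germline list ran from 4.75 to 7.76 in group means in the knockout and from 4.82 to 7.78 in the wild type, and its summed signal was 11.18 to 11.33 in the knockout and 11.25 to 11.41 in the wild type (log2 of the sum of linear signals). Ddx4, an RNA helicase that defines germ cells, had a mean of 5.27 ± 0.16 in the knockout and 5.23 ± 0.11 in the wild type (SD, n = 3 each). The germ cell RNA-binding protein gene Dazl had 5.68 ± 0.08 in the knockout and 5.65 ± 0.20 in the wild type, and Stra8, which starts meiosis, had 5.52 ± 0.03 in the knockout and 5.52 ± 0.04 in the wild type. All 3 lay below the Kdm5d level, and they were picked outside the naming rule given below. The list as a whole did not: its median group mean lay above that level, at 6.56 in the knockout and 6.66 in the wild type.

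Genes of the dividing cell did not pass the test. None of 14 condensin and Smc5/6 genes passed limma and none had an unadjusted p under 0.05, the smallest belonging to Smc5 (-0.09) and Smc2 (0.07), subunits of the complexes most like cohesin. None of 21 mitotic cycle genes passed and none had an unadjusted p under 0.05, with the smallest p for Cdt1, a replication licensing factor, at 0.14 and Mcm3, a subunit of the replicative helicase, at -0.06. Their medians were -0.02 each.

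**Figure D5:**
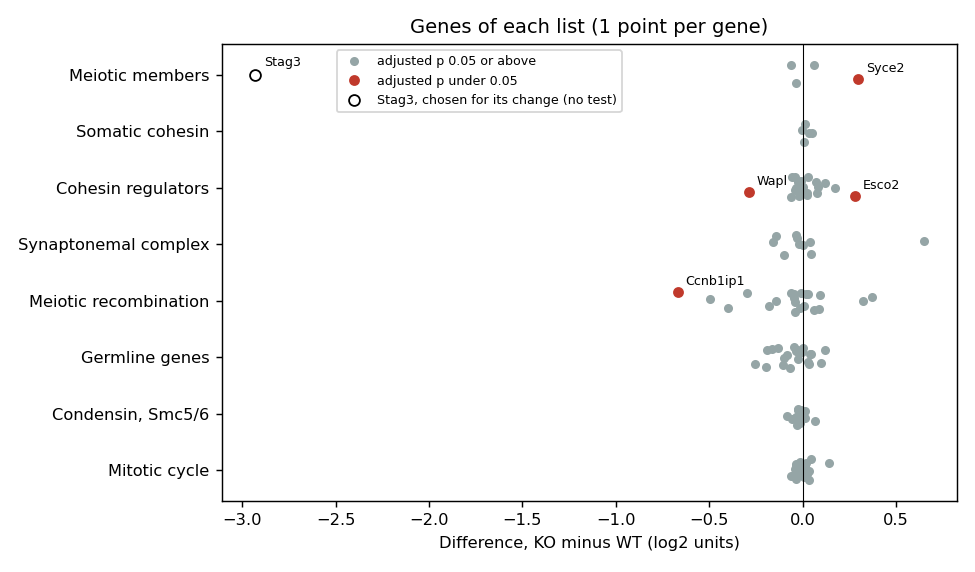
Knockout minus wild-type difference in log2 units (x axis) of every measured gene in 8 lists (rows), 1 point per gene; red points passed the test at an adjusted p under 0.05, and the open circle is Stag3, chosen for its change and not tested. The points that passed are Syce2, Wapl, Esco2 and Ccnb1ip1.

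The genes whose pattern over the 6 arrays was most like that of Stag3 were Tyk2, Nedd4l, Rrbp1, Tfpi and Psma8, with Pearson r between 0.9994 and 0.9997. The arrays fall into the 2 genotypes and share their normalization, so r mostly reflects that split and is a description. Psma8, which encodes a proteasome subunit of meiotic germ cells, was 3.75-fold lower in the knockout, at 7.74 ± 0.14 against 9.64 ± 0.11 in the wild type (SD, n = 3 each). Tyk2, a JAK-family kinase, was 2.51-fold lower (9.36 ± 0.09 in the knockout and 10.69 ± 0.03 in the wild type) and Tfpi, an inhibitor of blood coagulation, 2.30-fold lower (9.52 ± 0.09 in the knockout and 10.72 ± 0.04 in the wild type). The ubiquitin ligase gene Nedd4l and the ribosome-binding protein gene Rrbp1 differed by -0.38 and -0.26 log2 units.

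Facts of the whole series bear on these values as follows. Array medians lay between 7.79 and 7.84. Etv5 has a pair of probe sets. The dimmer was 1.35-fold lower in the knockout, at 8.93 against 9.37 in the wild type (limma adjusted p = 0.0467, lost in each fit without 1 sample). The brighter was higher by 0.28 log2 units in the knockout, at 11.76 against 11.49 (adjusted p = 0.13). Which exons either reads is not given in the sources used here, so these values do not show loss of the transcript. The 11 measured pre-B markers were bright, with group means from 9.32 to 14.25 in the knockout and 9.25 to 14.29 in the wild type, Pax5 higher by 0.43 and Dntt lower (-0.37) in the knockout. Of 11 myeloid markers, 5 were higher and 6 lower in the knockout, with a median difference of -0.0029. Ly6g (1.14) and Itgam (0.60) rose and none fell. Among those that did not pass, the genotypes lay apart for Lyz2 (-0.32), Fcgr3 (0.30) and Elane (0.05). The list's summed signal was 10.74 to 10.90 in the knockout and 10.62 to 10.73 in the wild type, higher in every knockout sample. Its part in the differences above was not tested. Leaving out 1 sample ended the calls of Dntt and Itgam in 4 of 6 fits each and those of Pax5 and Ly6g in 3 each, with adjusted p-values of up to 0.0809, 0.112, 0.0751 and 0.0694 for Dntt, Itgam, Pax5 and Ly6g. None of 10 T and NK cell, 5 erythroid and megakaryocyte or 8 stromal and endothelial markers passed limma (2, 0 and 0 with an unadjusted p under 0.05). Their group means stayed at or below 8.81 in the knockout and 8.82 in the wild type. In bulk RNA, fewer cells of a type and less RNA per cell cannot be told apart.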

How the data were processed

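Biotin-labelled RNA of 6 samples was measured on Affymetrix arrays of a single colour, as the labels' protocols state. The authors' deposited table gives log2 signals for 35556 probe sets in each sample, and the submitters' processing notes name RMA and Partek 6.5. That the scale is log2 follows from the range of the values (2.58 to 14.7). The chip definition, background settings and detection calls were not stated there. The number of arrays limits the precision.

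Genotypes were read from the titles of the samples. Probe-set names came from the platform's annotation (21789 with 1 gene symbol, 1621 with several, 12146 with none listed), and neighbours through the GRCm38.p6 gene table. The comparison, knockout minus wild type, used limma 3.58.1 (R 4.3.3; all 6 samples, lmFit with eBayes, without trend, covariate or filter) with Benjamini-Hochberg adjustment over all probe sets; the prior added 2.23 degrees of freedom. For paralogue pairs, within-array differences were added as rows to that fit. The procedure was also run on simulated arrays with known changes. Their probe sets were independent and had shuffled spreads, unlike the real arrays, so that run does not check the calls made here.

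The members, lists, tests and alternatives were chosen with earlier results of these data known. Named were all members, the list genes that passed (otherwise the 2 with the smallest p), genes directly beside a member or passing within 3 places, the 5 genes most like Stag3, and Etv5. Some further genes were named outside this rule, among them Ddx4, Dazl and Stra8. Predicted, olfactory, vomeronasal, small RNA and immunoglobulin genes were left out of the search for genes like Stag3. Sample numbers are shared between genotypes, but no label ties them to a shared animal or day, and samples with the same number did not all deviate together (r of deviations -0.12, 0.016 and 0.26), so the samples were not treated as paired.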

Additional observations from a re-analysis of the deposited data

How the results depend on the processing

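Ccnb1ip1, and Gpc2 outside the replicate block, kept their direction and call in all alternatives run. As a description, the difference of Stag3 ranged from -3.01 to -2.84 without 1 sample and from -2.94 to -2.88 otherwise. The replicate block, with the sample number as a term although the labels do not pair the samples, lowered the probe sets called to 544 of 35556, against 1095; the members past the threshold, a count of 2 that includes the untested Stag3, to 1 (Syce2 kept 0.30 with adjusted p = 0.148) and the cohesin regulators called to 0, and moved Gpc2 to adjusted p = 0.0566. Leaving out 1 sample at a time gave 565 to 857 probe sets, 1 member (not Syce2), 0 regulators, 0 to 1 synaptonemal genes and 1 to 2 recombination genes; the counts of probe sets under 1095 by more than 1.5 times came without wild-type sample 1 (565), wild-type sample 2 (620) and knockout sample 3 (586). The member count was 1 at an adjusted p under 0.01. With the array median subtracted, 1 regulator passed (Esco2). Recombination genes called numbered 3 with quantile normalization (Ccnb1ip1, Mlh3, Prdm9), 2 with a variance trend (Ccnb1ip1, Spo11), 2 with array weights (Ccnb1ip1, Prdm9) and 4 over gene means (Ccnb1ip1, Mlh3, Prdm9, Spo11). The synaptonemal count was 1 (4930447C04Rik) with array weights, over gene means and without wild-type sample 3. The cause was not tested.

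Differences near 0 changed sign without passing limma in any setting. With array weights Rad21 was -0.018, Rad21l 0.0043, Rad21l minus Rad21 0.022 and Stag2 -0.014; Smc3 was 0.0019 with quantile normalization and 0.0015 with cyclic loess. Without 1 sample, Rad21 ranged from -0.019 to 0.030, Rad21l from -0.098 to 0.028 and Rad21l minus Rad21 from -0.11 to 0.020. Rec8 ranged from -0.00085 to 0.15, Rec8 minus Rad21 from -0.013 to 0.13 and Smc3 from -0.047 to 0.024 in these fits. Stag1 ranged from -0.0026 to 0.056 and Stag2 from -0.028 to 0.036. By contrast, Syce2 was not near 0 and kept its sign there, ranging from 0.28 to 0.32. The filter on the dimmest 40% of probe sets removed Smc1b, Rad21l and Rec8, so these and their pairs have no value there. RMA compresses dim signals, which limits what Smc1b, Rad21l and Rec8 can show.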
